A study of Mus musculus with 6 samples.

Results

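A set of 9 core genes of the Hedgehog pathway were followed in sorted mouse muscle cells: Ptch1, Smo, Hhip, the co-receptors Boc, Cdon and Gas1, and the transcription factors Gli1, Gli2 and Gli3. They were chosen by gene symbol. All 9 members were found among the 24062 genes of the normalised count table, which covers the Twist2 line, and all 9 were found among the 4939 genes of the CPM (read counts scaled by library size) table, which covers both lines.

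Cells of digested hind limb muscle from adult C57BL/6 mice were sorted by tdTomato and their total RNA was sequenced. The Twist2 line was Tw2-CreERT2/+;R26-tdTO+ and gave 2 libraries of tdTomato-positive cells (Tw2pos) and 2 of tdTomato-negative cells (Tw2neg). The Pax7 line was Pax7-CreERT2/+;R26-tdTO+ and gave 1 positive library (Pax7pos) and 1 negative library (Pax7neg). All mice carried 1 CreERT2 allele and the tdTomato reporter and received tamoxifen every other day, 3 treatments in all, with harvest 10 days later. The label therefore marks cells in which the Twist2 or the Pax7 driver was active at the time of tamoxifen, and their progeny, and the negative cells are a mixture of whatever did not recombine. Whether the replicates stem from separate animals is not in the labels, and p-values then measure only the spread between these libraries, which may be technical.

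The libraries held 10902318 to 13205751 reads in the normalised count table, and the Pax7 libraries held 6016469 and 7565797 reads in the CPM table. Twist2 stood at 99.4 and 221.9 normalised counts in Tw2pos against 22.0 and 23.2 in Tw2neg. Pax7 stood at 302.8 CPM in Pax7pos, at 0.402 CPM in Pax7neg, at 12.2 and 7.21 CPM in Tw2pos and at 45.7 and 14.8 CPM in Tw2neg. Fibroblast markers such as Pdgfra and Dcn (10 genes, none at 0) summed to 1217730 and 1315590 normalised counts in Tw2pos. In Tw2neg they summed to 304469 and 160177. Of these 10 genes 7 were higher in Tw2pos, and 3 (Ly6a, Col1a2 and Col3a1) did not pass. Of the other marker lists, 6 of 6 tendon genes and 4 of 6 myofibre genes were higher in Tw2pos, and 6 of 6 macrophage, 6 of 6 lymphocyte, 5 of 5 neutrophil, 4 of 4 red cell and 5 of 6 endothelial genes were lower, where limma called 18.7% of all genes tested higher and 20% lower. Of 8 satellite cell genes 1 was higher and 3 lower, of 7 Schwann cell genes 2 were higher and 4 lower, and of 7 pericyte genes 0 passed. Tw2neg replicate 1 had 1.90 times the fibroblast marker sum of replicate 2 and 2.76 times its endothelial sum.

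Hedgehog ligands are secreted proteins that bind Patched (Ptch1) on the receiving cell. Unbound Patched keeps the membrane protein Smoothened (Smo) inactive. When a ligand binds, Smo enters the primary cilium and the Gli factors switch from repressing to activating their targets, which include Gli1, Ptch1 and Hhip themselves. Boc, Cdon and Gas1 help Patched bind the ligand, and Hhip binds the ligand on the cell surface and takes it away. In adult muscle the pathway is known from fibro-adipogenic progenitors, which carry cilia, and from satellite cells, the stem cells of the myofibre. In the progenitors it restrains fat formation.

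Hhip and Ptch1 are both textbook Gli targets and both limit the pathway, and they had the largest and the smallest difference between Tw2pos and Tw2neg among the members. Their upstream sequences are shown for that reason, each as the 250 bases before the RefSeq start (GRCm38.p6), read 5′ to 3′ on the gene's strand, with GC boxes (GGGCGG or CCGCCC) in capitals. The Hhip stretch is chr8:80058009-80058258 and the Ptch1 stretch is chr13:63565736-63565985, both on the minus strand. The Ptch1 stretch lies inside the longer gene model of GENCODE M21, outside its exons.
Hhip: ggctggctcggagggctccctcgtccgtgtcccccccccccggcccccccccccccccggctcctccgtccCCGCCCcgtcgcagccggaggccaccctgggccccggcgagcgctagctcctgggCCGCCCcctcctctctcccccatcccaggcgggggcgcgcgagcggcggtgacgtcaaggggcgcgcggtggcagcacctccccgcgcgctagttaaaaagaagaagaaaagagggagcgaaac
Ptch1: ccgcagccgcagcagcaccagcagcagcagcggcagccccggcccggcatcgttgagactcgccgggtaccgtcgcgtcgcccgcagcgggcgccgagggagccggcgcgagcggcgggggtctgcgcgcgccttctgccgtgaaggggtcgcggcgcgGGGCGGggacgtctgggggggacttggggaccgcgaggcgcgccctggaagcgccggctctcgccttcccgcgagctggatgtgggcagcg
The Hhip stretch is 76% G and C with 28 CpG pairs and 2 GC boxes, and the Ptch1 stretch is 78.4% G and C with 41 CpG pairs and 1 GC box. RefSeq windows were matched for 7 of the 9 members, all except Gli1 and Boc. A GC box was found in 5 of those 7, against 32.7% of 32851 mouse windows of that length. Their median G and C content was 68.4%, against 52.4% for all windows, and they held a median of 22 CpG pairs against 6. Like that of Ptch1, the windows of Cdon and Gli3 lie inside longer gene models. The Cdon window shares 31 bases with exons of the gene and has 42.8% G and C and 1 CpG pair. The Gli binding motif GACCACCCA, or TGGGTGGTC on the other strand, was in 0 of the 7 stretches and in 0.225% of all windows. With any base allowed at 1 position (GACCNCCCA, which contains the first motif) it was again in 0 of 7, and in 0.868% of all windows. An E-box (CANNTG), the kind of site that Twist proteins bind, was in 1 of 7, that of Gli3, and in 66.2% of all windows. These matches say only which letters stand in these windows.

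In the Twist2 line, 8 of the 9 members were higher in labelled than in unlabelled cells, by 1.69 to 2.75 on the log2 scale of normalised count plus 1, and Ptch1 did not pass the test. The same test (limma, Benjamini-Hochberg adjusted p under 0.05) called 18.7% of the 14155 genes tested higher in Tw2pos. Among the members the median difference was 1.77, and over all genes tested it was −0.04. Both Tw2pos libraries stood above both Tw2neg libraries for 8 of 9 members and for 37.1% of all genes tested. In bulk RNA, more cells of a type and more RNA per cell cannot be told apart.

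Smo, the signalling receptor that Patched holds in check, stood at 1332 and 1239 normalised counts in Tw2pos and at 475 and 201 in Tw2neg. The groups did not overlap, and the means were 1285 ± 66.2 and 338 ± 194 (SD, n = 2 each). The difference was 2.05 (SE 0.40, limma adjusted p = 0.0111). It was 2.67 without Tw2neg replicate 1 and 1.43 without replicate 2, and passed in both.

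Hhip, the ligand-binding inhibitor, had the largest difference of the 9 genes. Its values were 785 and 709 normalised counts in Tw2pos and 156 and 77.6 in Tw2neg. The lowest labelled library was well above the highest unlabelled one, and the difference was 2.75 (SE 0.35, 95% interval 1.90 to 3.60, limma adjusted p = 0.0031).

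Ptch1, the ligand receptor, had 344 and 194 normalised counts in Tw2pos and 332 and 256 in Tw2neg. The groups overlapped fully, with Tw2pos replicate 1 as the highest of the 4 libraries and replicate 2 as the lowest. Its difference was −0.17 with a 95% interval of −0.96 to 0.62, which does not hold a rise as large as that of any other member (limma adjusted p = 0.701). The sign of this value turned without Tw2pos replicate 2 (0.24) and without Tw2neg replicate 1 (0.015).

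The 3 co-receptors had the highest counts of the 9 members. Boc, an immunoglobulin and fibronectin repeat protein, stood at 5979 and 5443 normalised counts in Tw2pos and at 1604 and 909 in Tw2neg, a difference of 2.24 (SE 0.30, limma adjusted p = 0.0035). Cdon, its closest relative, which is also known for promoting myogenic differentiation, stood at 3840 and 3240 against 1455 and 816, a difference of 1.69 (SE 0.30, limma adjusted p = 0.0088). Gas1, a lipid-anchored protein of another family, stood at 5430 and 4101 against 1158 and 485, a difference of 2.65 (SE 0.42, limma adjusted p = 0.0058). None of the 3 overlapped between groups. The Gas1 difference was 3.28 without Tw2neg replicate 1 and 2.03 without replicate 2, and passed in both.

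Gli1, the factor that reports pathway activity most directly because it is itself a Gli target, stood at 810.8 and 818.9 normalised counts in Tw2pos and at 326.9 and 172.7 in Tw2neg. The labelled libraries were nearly equal while the unlabelled ones differed from each other, and the difference between groups was 1.77 (SE 0.32, limma adjusted p = 0.0087). Gli2, the main activator, stood at 516 and 533 against 217 and 113, a difference of 1.74 (SE 0.33, limma adjusted p = 0.0108). Gli3, which acts mostly as a repressor when no ligand is present, stood at 722 and 806 against 294 and 187, a difference of 1.70 (SE 0.26, limma adjusted p = 0.0054).

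Within the Gli family the labelled and unlabelled cells of this line were alike. Gli1, Gli2 and Gli3 took 39.6%, 25.2% and 35.2% of Gli reads in Tw2pos replicate 1 and 39.0%, 25.9% and 35.0% in Tw2neg replicate 1, shares that do not depend on how the libraries were scaled. The second replicates gave 38.0%, 24.7% and 37.3% in Tw2pos and 36.5%, 23.9% and 39.6% in Tw2neg. The 3 Gli genes thus differed between the groups in level and by only a few percentage points in proportion.

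**Figure D1:**
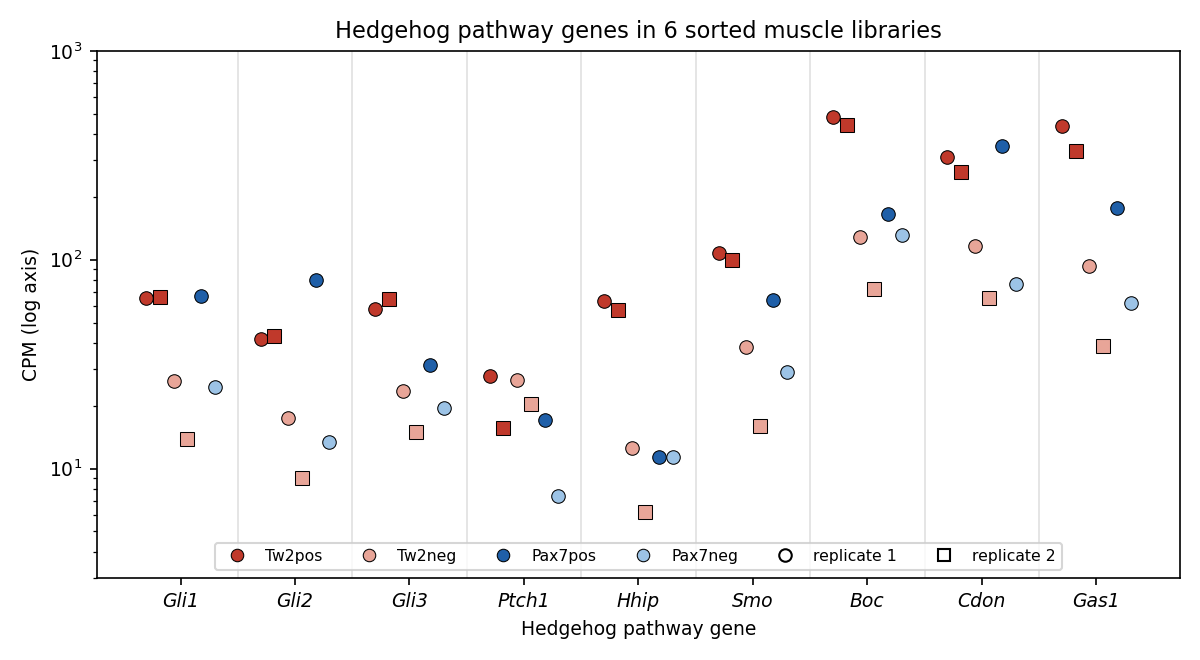
CPM on a log axis of the 9 Hedgehog pathway genes, 1 point per library, with colour for the group and shape for the replicate. The 2 Tw2pos points lie above the 2 Tw2neg points for every gene except Ptch1, Pax7pos reaches or passes Tw2pos for Gli1, Gli2 and Cdon, and Pax7pos and Pax7neg coincide for Hhip at 11.4 CPM.

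For every member Tw2neg replicate 1 was higher than Tw2neg replicate 2. The ratio ran from 1.30 for Ptch1 to 2.39 for Gas1 with a median of 1.89, against a median of 0.995 over all genes tested. The ratio of the fibroblast marker sums was 1.90, but that of the Schwann cell sums was 1.87 and that of the satellite cell sums 1.85. Most of the fibroblast sum came from Col1a1, Col1a2 and Col3a1 (ratios of 2.16, 2.15 and 1.95). Among the 10 single fibroblast markers the ratio ran from 1.33 (Ly6a) to 2.62 (Pdgfrb), with Pdgfra at 1.52. Over the other marker lists the ratio of the sums ran from 0.43 (lymphocyte) to 2.84 (pericyte). Set against Pdgfra, a fibroblast gene, Gli1 had 72.9 and 74.1 reads per 1000 Pdgfra reads in Tw2pos, 97.7 and 78.6 in Tw2neg and 92.8 in Pax7neg. Hhip had 70.6 and 64.2 per 1000 in Tw2pos, 46.7 and 35.3 in Tw2neg and 43.2 in Pax7neg. Ptch1 had 31.0 and 17.6 per 1000 in Tw2pos, 99.2 and 116.5 in Tw2neg and 28.0 in Pax7neg. So on this scale Gli1 was not higher in Tw2pos than in the unlabelled libraries and Hhip was, and Ptch1 was higher in Tw2neg than in Tw2pos and Pax7neg. Pax7pos, with Pdgfra at 4.28 CPM, was not set on this scale. The scale rests on Pdgfra alone, which differed by 2.03 between Tw2pos and Tw2neg. The 10 fibroblast markers differed by 0.86 (Ly6a) to 2.82 (Col1a1). Gli1 (1.77) and Hhip (2.75) lay within that range, so another marker as reference could change the order for either. The part of fibroblast content in the differences of the members was not tested.

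The ligands themselves were scarce. Shh had 0 reads in each of the 4 Twist2 libraries, which allows up to 3 reads in each. Ihh had 1 and 0 reads in Tw2pos and 19 and 6 in Tw2neg, under the minimum level for the test. Dhh, which Schwann cells are known to make, had 29.3 and 36.2 normalised counts in Tw2pos and 92.7 and 38.4 in Tw2neg, a difference of −0.86 that did not pass (limma adjusted p = 0.212).

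Of the 9 genes for ligands and their release, 7 were tested, and 3 were higher in Tw2pos, 0 lower and 4 did not pass, with a median difference of 0.70. Scube2, which helps carry the lipid-bearing ligand away from its source, had the largest difference, with 1382 and 1383 normalised counts in Tw2pos and 150.4 and 51.2 in Tw2neg (difference 3.96, SE 0.48, limma adjusted p = 0.0028). It was 4.73 without Tw2neg replicate 1 and 3.19 without replicate 2, and passed in both. Gpc3, a glypican that competes with Patched for ligand, stood at 3857 and 5079 against 1381 and 1009 (1.91, limma adjusted p = 0.0033). Hhat, the enzyme that attaches palmitate to the ligand, stood at 161.9 and 167.6 against 55.3 and 49.6 (1.64, limma adjusted p = 0.0063), and its call was lost without either Tw2pos library.

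Of 15 further genes for receptors and signal control, 14 were tested, and 5 were higher, 2 lower and 7 did not pass, with a median of 0.51. The count of 5 fell without either Tw2pos library and rose without Tw2neg replicate 1. It was 3 with library total scaling, where 1607 of all genes tested were called higher, against 2645. The ciliary partners Evc2 (1.92, limma adjusted p = 0.0046) and Evc (1.85, limma adjusted p = 0.0029), which pass the Smo signal on, were higher. Gpr161, a ciliary receptor that restrains the pathway, stood at 94.3 and 97.7 normalised counts in Tw2pos and at 49.6 and 24.8 in Tw2neg (1.43, limma adjusted p = 0.0376), and its call was lost without either Tw2pos library and without Tw2neg replicate 2. Arrb2, a beta-arrestin, had 142.8 and 141.1 normalised counts in Tw2pos against 784.7 and 1000.3 in Tw2neg and was lower (−2.63, limma adjusted p = 0.00077). Adrbk1, the kinase Grk2, which phosphorylates Smo and many other receptors, was lower too (−2.08, limma adjusted p = 0.0023). The 6 macrophage markers summed to 1715 and 2164 in Tw2pos against 29071 and 33394 in Tw2neg. The 5 neutrophil markers summed to 389 and 241 against 58330 and 55124. For the 6 lymphocyte markers the sums were 68.8 and 163 against 4926 and 11383. The part of these cell types in the values of Arrb2 and Adrbk1 was not tested. Csnk1a1, the gene of the list with the highest mean normalised count (not corrected for length), did not pass (0.40, limma adjusted p = 0.139).

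Of 11 genes described as Gli targets, 9 were tested, and 4 were higher, 1 lower and 4 did not pass, with a median of 0.60. Osr1, a transcription factor of fibro-adipogenic progenitors, stood at 557 and 587 normalised counts in Tw2pos and at 126.9 and 127.1 in Tw2neg (2.16, limma adjusted p = 0.0011). Bmp4, a growth factor (1.48, limma adjusted p = 0.0139), Timp3, a protease inhibitor that Hedgehog raises in these progenitors (1.51, limma adjusted p = 0.0344), and Ccnd2, a cyclin (0.60, limma adjusted p = 0.0427), were also higher, and Bcl2, a survival gene, was lower (−0.85, limma adjusted p = 0.0217). The calls of Timp3, Ccnd2 and Bcl2 were each lost without either Tw2pos library, which left 2 higher and 0 lower. With no filter on level or with quantile normalization 2 were higher as well. Over all genes 2228 and 3213 were called higher in those settings, against 2645.

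All 24 primary cilium genes were tested, and 11 were higher, 1 lower and 12 did not pass, with a median of 0.85. The count of 11 fell without either Tw2pos library. It was 4 with library total scaling, 5 with no filter on level, 6 without the variance trend and 17 with quantile normalization. Over all genes the 2645 called higher became 1607, 2228 (of 18503 tested), 2269 and 3213 in these settings. The largest differences among those with enough reads were those of Cc2d2a (1.73, limma adjusted p = 0.0081), Tctn2 (1.70, limma adjusted p = 0.0297) and Bbs1 (1.45, limma adjusted p = 0.0363), of which the first pair belong to the gate at the base of the cilium and Bbs1 to the carrier complex of its membrane. Ift140, of the transport machinery that returns cargo from the tip, was lower (−1.18, limma adjusted p = 0.0122). Arl13b, a ciliary GTPase with the highest mean normalised count of the list (not corrected for length), was higher by 0.83 (limma adjusted p = 0.0348). Tctn2, Bbs1 and Arl13b each lost their call without either Tw2pos library, and Ift140 without Tw2pos replicate 2.

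**Figure D2:**
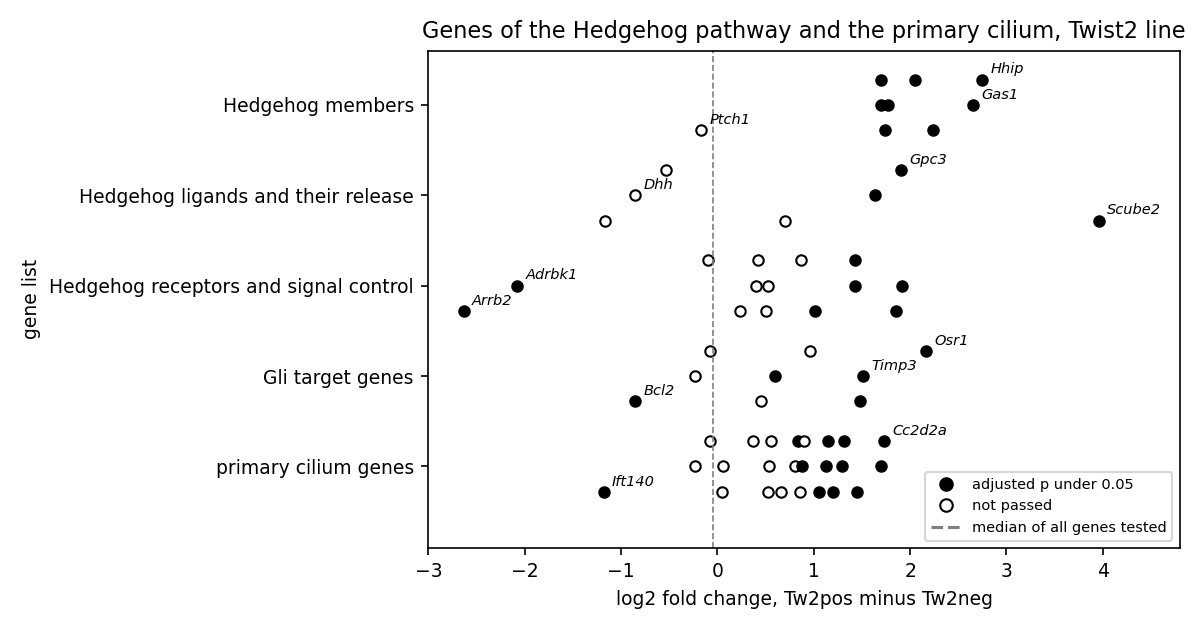
Log2 fold change of each tested gene of 5 lists between Tw2pos and Tw2neg, filled where the adjusted p was under 0.05, with the median of all genes tested as a dashed line. Ptch1 lies apart from the other 8 members, and the remaining lists hold genes on both sides of the line, with Scube2 at 3.96 and Arrb2 at −2.63 as their ends.

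Labelled cells of the 2 lines were compared in CPM, where the lone Pax7 library is assumed to vary like the Twist2 libraries. Of the 9 members, Hhip and Boc were higher in Tw2pos than in Pax7pos, and 7 did not pass, where 33.7% of the 4939 genes were called higher in Tw2pos. The members' median difference on log2 of CPM plus 1 was 0.68, against 0.41 over all genes of the table. With TMM scaling that overall median was 0.13. The CPM table holds only genes that reach 10 CPM in 3 libraries and that the authors' deposited values put 2-fold or more from Tw2neg. Shares of genes called in it therefore do not describe all genes. Hhip and Boc met that 2-fold rule only through Tw2pos against Tw2neg (2.57 and 2.18). Their calls here rest on the same Tw2pos values that let them into the table.

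Hhip had 63.4 and 57.3 CPM in Tw2pos against 11.4 CPM (exact Poisson 95% interval 9.35 to 13.7, for counting error only) in Pax7pos. The difference was 2.31 (SE 0.45, limma adjusted p = 0.0041) and it passed with each Twist2 library left out in turn. Boc had 483 and 439.8 CPM in Tw2pos and 165.0 CPM (157 to 173) in Pax7pos, a difference of 1.48 (SE 0.40, limma adjusted p = 0.0145). Without Tw2pos replicate 1 its difference was 1.41 and no longer passed (limma adjusted p = 0.0503).

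Gli1 had nearly the same CPM in both labelled populations, with 65.5 and 66.2 CPM in Tw2pos and 66.6 CPM (61.6 to 72.0) in Pax7pos. Its difference was −0.02, but the 95% interval of −0.98 to 0.95 spans nearly 1 log2 unit in either direction. Gli2 and Gli3 lay on opposite sides. Gli2 had 41.7 and 43.1 CPM in Tw2pos and 80.3 CPM (74.8 to 86.2) in Pax7pos, and the difference of −0.91 did not pass (limma adjusted p = 0.101). With TMM scaling the Gli2 difference was −1.24 and passed (limma adjusted p = 0.0257). Gli3 had 58.3 and 65.1 CPM in Tw2pos and 31.4 CPM (28.0 to 35.2) in Pax7pos. Its difference of 0.95 did not pass (limma adjusted p = 0.0611). TMM scaling gave −0.35 for Gli1 and 0.62 for Gli3, and neither passed.

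Cdon had 310.2 and 262 CPM in Tw2pos and 351.8 CPM (340.0 to 364) in Pax7pos. Its difference of −0.30 did not pass (limma adjusted p = 0.529). Gas1 had 439 and 331 CPM in Tw2pos and 176 CPM (168 to 185) in Pax7pos (1.11, limma adjusted p = 0.0903). Smo had 107.6 and 100.1 against 64.2 CPM (0.68, limma adjusted p = 0.251), and Ptch1 had 27.8 and 15.7 against 17.0 CPM (0.28, limma adjusted p = 0.592). Both Tw2pos values of Gas1 and of Smo were above the Pax7pos value, and those of Ptch1 lay on either side of it. Without Tw2neg replicate 1 or without replicate 2, the calls came to 6 of 9, with Gli3, Smo and Gas1 higher and Gli2 lower in Tw2pos, since the spread then rests on the close Tw2pos pair alone. In each of those fits 77.3% of the 4939 genes were called, so 6 of 9 is no more than the background.

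Among the pathway genes in the CPM table, 2 of 2 ligand release genes, 1 of 6 receptor and control genes (Evc) and 3 of 5 Gli targets were higher in Tw2pos. The largest difference was that of Scube2 (6.31), which had 4 reads (0.418 CPM) in Pax7pos. In the other direction stood Adrbk1 (−0.98, limma adjusted p = 0.0420), Csnk1a1 (−1.09, limma adjusted p = 0.0192) and Ccnd1 (−1.17, limma adjusted p = 0.0244). Of 8 cilium genes, Kif3b was higher (1.41, limma adjusted p = 0.0086), Arl13b was lower (−1.01, limma adjusted p = 0.0359) and 6 did not pass. In mean CPM, Csnk1a1, Ccnd1, Ccnd2, Kif3b and Arl13b were 2-fold or more from Tw2neg only in Pax7pos. Evc and Timp3 were so only in Tw2pos. Their calls here thus rest on the same values that let them into the table. Ccnd1 and Kif3b were picked out after their values were seen, and the calls of Adrbk1, Csnk1a1, Ccnd1, Kif3b and Arl13b were lost without either Tw2pos library.

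**Figure D3:**
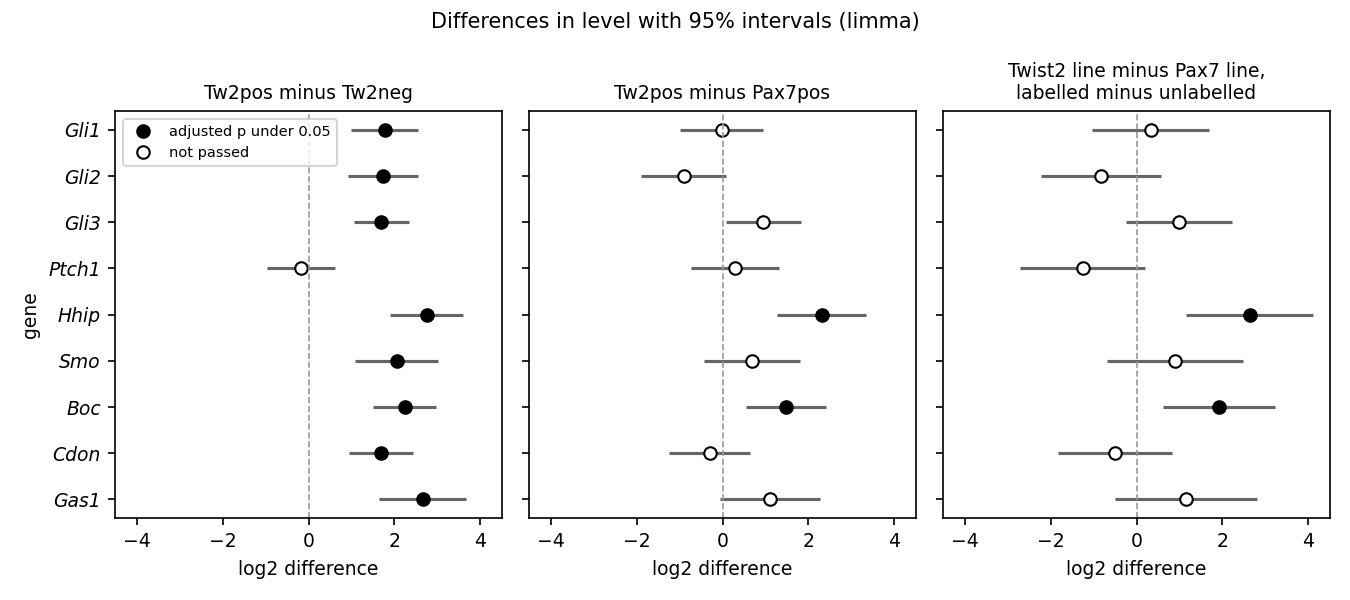
Log2 difference of the 9 genes with its 95% interval in 3 comparisons, filled where the adjusted p was under 0.05. All genes except Ptch1 lie right of 0 in the Twist2 line, while between the labelled cells of the lines, and for the difference between the lines, only Hhip and Boc passed.

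In the Pax7 line each group had 1 library, so values are given with counting intervals and without a test. Cdon was past the size of 2 on log2 of CPM plus 10 that was taken as different, with 351.8 CPM in labelled and 76.3 CPM (71.5 to 81.3) in unlabelled cells, a 4.61-fold ratio and a difference of 2.07. This was 1 of 9 members, where 3.83% of the genes in the table were past that size in this direction. Gli2 was just inside it, with 80.3 CPM against 13.3 CPM (11.4 to 15.5), a 6.02-fold ratio and a difference of 1.95. With 1 in place of 10 added to CPM, both Gli2 and Cdon were past it.

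The other members of the Pax7 line differed less. Gas1 had 2.85 times its Pax7neg level in Pax7pos (61.9 CPM in Pax7neg), Gli1 2.72 times (24.5 CPM), Ptch1 2.30 times (7.39 CPM) and Smo 2.21 times (29.1 CPM). Gli3 had 1.62 times its Pax7neg level of 19.4 CPM, and Boc 1.26 times its level of 131 CPM (125 to 138). Hhip had the same level in both, 11.4 CPM from 109 reads in Pax7pos and 11.4 CPM from 142 reads in Pax7neg. Fibroblast markers summed to 4851 CPM in the labelled library and to 49541 CPM in the unlabelled one, and Pdgfra was at 4.28 CPM in Pax7pos, so the Pax7pos levels of these genes stood beside nearly no Pdgfra. Satellite cell markers (6 genes) summed to 3696 and 227 CPM.

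Pax7pos stood outside the range of the other 5 libraries in its shares of Cdon, Boc, Gli2 and Gli3 within their gene families. Cdon took 50.8% (95% exact Clopper-Pearson interval 49.6 to 52.0, for counting error only) of the co-receptor reads there, against 25.2% and 25.3% in Tw2pos, 34.5% and 36.9% in Tw2neg and 28.3% in Pax7neg. Boc took 23.8% in Pax7pos and 38.0% to 48.7% in the other 5 libraries. Gli2 took 45.0% (42.6 to 47.4) of the Gli reads in Pax7pos and 23.3% to 25.9% elsewhere, and Gli3 took 17.6% (15.8 to 19.5) there and 33.9% to 39.6% elsewhere. The share of Gli1 was 37.4% in Pax7pos, within the 36.5% to 42.8% of the other 5. With 1 Pax7pos library, the spread of these shares between such libraries is not known.

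**Figure D4:**
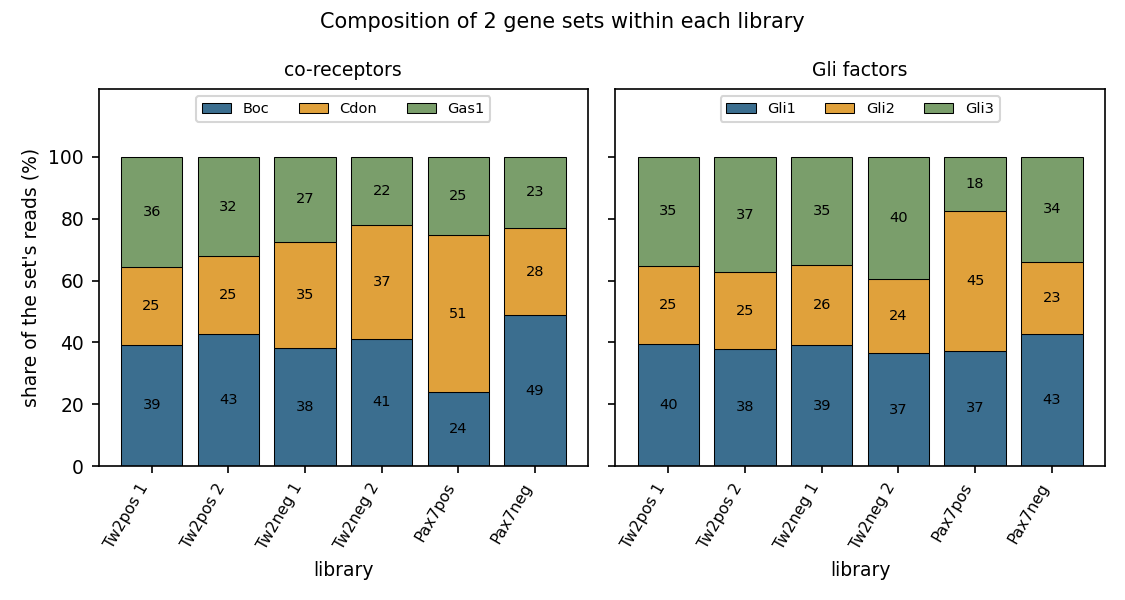
Share of reads within the co-receptors and the Gli factors in each library, in percent of the set's reads. Pax7pos stands apart by its share of Cdon (50.8%) and Gli2 (45.0%).

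Unlabelled cells of the 2 lines were set side by side as a background for these differences. None of the 9 members passed the limma test, where 0.0607% of the 4939 genes (3 genes) were called. At an unadjusted p under 0.05 the count was 1, Ptch1, and edgeR called 0. Ptch1 had 26.6 and 20.5 CPM in Tw2neg and 7.39 CPM (5.96 to 9.07) in Pax7neg, a difference of 1.54 (SE 0.44, 95% interval 0.51 to 2.56, limma adjusted p = 0.169). It passed without either Tw2neg library, at 1.35 and 1.72. Without Tw2neg replicate 1, Gli1, Smo and Boc also passed, lower in Tw2neg, which made 4 of 9, where 21.2% of all genes in the table were called in that fit. Without replicate 2, Ptch1 alone passed, where 18.1% were called. In the authors' deposited table this comparison, at −1.55 for Pax7neg against Tw2neg, is the one of 3 in which Ptch1 reaches 2-fold, and so the one by which it entered the table. The other 8 members differed by −0.44 to 0.19.

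The difference between labelled and unlabelled cells was itself compared between the lines. For 2 of 9 members, Hhip and Boc, it was larger in the Twist2 line, where 23.2% of the 4939 genes were called in that direction. Both entered the CPM table by their difference between Tw2pos and Tw2neg alone, which is itself a part of the value compared here. For Hhip the Twist2 line exceeded the Pax7 line by 2.64 (SE 0.64, 95% interval 1.16 to 4.11, limma adjusted p = 0.0166) and for Boc by 1.91 (SE 0.56, 0.61 to 3.22, limma adjusted p = 0.0327). Both calls were lost without either Tw2pos library, at 2.56 and 2.71 for Hhip and 1.84 and 1.98 for Boc, where the spread rests on the Tw2neg pair alone. Gas1 (1.15), Gli3 (0.99), Smo (0.90), Gli1 (0.33), Cdon (−0.50), Gli2 (−0.83) and Ptch1 (−1.25) did not pass, with limma adjusted p from 0.150 to 0.678. Without Tw2neg replicate 1, Gli1, Gli3, Smo and Gas1 passed as well (6 of 9), and without replicate 2, Gli2, Cdon and Ptch1 passed in the other direction beside Hhip and Boc (5 of 9). In those fits 64.2% and 59.1% of all genes in the table were called.

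Levels of different genes were compared per length, as CPM per kb of GENCODE exon. In Tw2pos, Gas1 (148.1 and 111.9) and Boc (108.5 and 98.8) stood highest, followed by Cdon (40.2 and 33.9), Smo (19.1 and 17.8) and Gli1 (13.1 and 13.2). Hhip (6.99 and 6.31) stood just above Gli2 (6.07 and 6.27), and Gli3 (6.08 and 6.79) overlapped with both. Ptch1 was lowest, with 1.96 and 1.11 CPM per kb. In Pax7pos the order of the co-receptors was Gas1 (59.4), Cdon (45.6) and Boc (37.1), with Gli1 (13.3), Gli2 (11.7) and Smo (11.4) close to each other, and Hhip (1.25) and Ptch1 (1.20) at the bottom.

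For each member, the genes with the most similar profile over the 6 libraries were found by the root mean square difference of log2 of CPM plus 1, each gene centred on its own mean. The closest match of all was that of Gli3 to Pcdh7, a protocadherin, at 0.049. Nearest to Gli1 were Phlda3 (0.087), Pknox2 (0.093) and Pcx (0.097), and nearest to Boc were Lhfp (0.069), Itih5 (0.099) and Fzd1 (0.109). Hhip was closest to Prelp (0.131), Cdh2 (0.135) and Igfbp5 (0.140), and Gas1 to Tenm3 (0.135), Kcnma1 (0.161) and Sema3a (0.204). Cdon was closest to Eya4 (0.092), Kirrel (0.118) and Bmp4 (0.137), and Gli2 to Cpeb1 (0.119), Pde7b (0.122) and Lrrn1 (0.141). Smo was closest to Mapk8ip1 (0.127), Steap2 (0.130) and Matn2 (0.131), and Ptch1, whose matches were the loosest, to Hmbox1 (0.192), Tnks (0.197) and Vps13c (0.205). The remaining matches of Gli3 were Chpt1 (0.070) and Man1c1 (0.093).

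In GRCm38 (GENCODE M21) the members are protein-coding genes at separate places. Gli1 lies at chr10:127329882-127341974, Gli2 at chr1:118834132-119053619 and Hhip at chr8:79965851-80058006. Boc lies at chr16:44485049-44558897, Cdon at chr9:35421128-35507652 and Smo at chr6:29735503-29761365. Chromosome 13 holds Gli3 (chr13:15463235-15730026), Gas1 (chr13:60174405-60177365) and Ptch1 (chr13:63508328-63573598). Exons of Gli1 share 62 bases with Arhgap9 on the other strand. Arhgap9 stood at 21.7 and 19.3 normalised counts in Tw2pos and at 730.3 and 973 in Tw2neg, opposite in direction to Gli1. Exons of Gli1, Gli3, Hhip and Gas1 also share 175 to 589 bases with noncoding genes on the other strand, and no source used here states the strand setting of the counting, so reads of such pairs cannot be told apart.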

How the data were processed

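The data are 6 RNA-seq libraries in 4 groups. The submitters' processing notes name TopHat2 2.0.0, DESeq2 1.6.3 and GRCm38/mm10 but no read counter. The authors deposited a normalised signal per gene (called normalised counts here) for the 4 Twist2 libraries, and CPM for both lines with log2 fold changes of the authors' own. In units of 1 read, 100% of the values were whole (tolerance 0.01), so reads were recovered, and Twist2 CPM per library was computed with effective library sizes of 9710688 to 15643678. Replicates of a group differed beyond counting noise.

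Tw2pos and Tw2neg were compared on log2 of normalised count plus 1 for the 14155 genes whose mean reached 10. The other comparisons used log2 of CPM plus 1 over 4939 genes and all 6 libraries. Both used limma 3.58.1 (R 4.3.3) with a mean-variance trend and Benjamini-Hochberg adjustment over all genes. The fits were tried on simulated counts with the same spread in every library, unlike these data, and false calls were not counted. For Tw2pos against Tw2neg, 61.2% of simulated 2-fold and 100% of 4-fold changes were recovered. For the difference between the lines 14.9% and 86.6% were recovered. Alternatives were edgeR 4.0.16 (which called 5350 genes in the first comparison and 2869 between the labelled cells) and DESeq2 1.42.0 on recovered reads, other scalings, filters and pseudocounts, a replicate block and each replicate left out. Python 3.11.15 with pandas 2.3.3, scipy 1.17.1 and matplotlib 3.10.9 made the tables and figures.

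The 9 genes, the pathway and marker lists and the tests were chosen with earlier results of these data known. Named beside them are each list's genes that passed in the Twist2 line (for lists with over 6, the 3 largest differences in each direction at a mean of at least 50), its most abundant gene, the ligands and the 3 nearest profiles. A further pathway gene is not reported here and is left out of its list.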

Additional observations from a re-analysis of the deposited data

Results flagged for a closer look

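For 8 of the pathway genes described above, and for Pax7, the difference between labelled and unlabelled cells was itself found to differ between the lines by limma on log2 of CPM plus 1. Among the pathway members these were Hhip (2.64 larger in the Twist2 line) and Boc (1.91). Among the further pathway genes they were Scube2 (7.30, with 4 reads in Pax7pos), Osr1 (5.10, with 10 reads in Pax7pos), Gpc3 (5.35), Ccnd2 (4.81) and Evc (2.09). Ccnd1 (−1.77) and Pax7 (−9.15) differed in the opposite direction. Larger in the Twist2 line were thus 2 of 9 members and 2 of 2 ligand release genes. So were 1 of 6 receptor and control genes and 2 of 5 Gli targets. A further 1 of these 5 Gli targets was smaller, and 0 of 8 cilium genes passed. Of all 4939 genes compared, 1145 (23.2%) were called larger and 619 smaller. A call by itself therefore does not set a gene apart. In mean CPM, Hhip, Boc and Evc were 2-fold or more from Tw2neg, and so in the CPM table, only through Tw2pos. Ccnd1 and Ccnd2 were so only through Pax7pos. For these genes, values that let them into the table are a part of the difference compared here. The calls of Hhip, Boc, Evc and Ccnd1 were lost without either Tw2pos library, and those of Scube2, Osr1, Gpc3 and Ccnd2 held. The groups of 1 and 2 libraries are too small for a check of single libraries against their group.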

How the results depend on the processing

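The 8 members called higher in Tw2pos than in Tw2neg were called in each of the 15 alternatives run for that comparison, with the replicate block included (8 members, 6627 genes in all). The replicate numbers are only shared: over 14155 genes the deviations correlated at 0.263 (Pearson). Over all genes the comparison called 2645 higher and 2825 lower, and 1607 higher and 5257 lower with library total scaling, which moved the median of all genes from −0.04 to −0.49; the 8 members passed there too. Quantile normalization gave 3213 higher and 2339 lower. TMM scaling gave 980 higher and 1110 lower for the difference between the lines, against 1145 and 619, and moved that median from 0.37 to −0.03.

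With 1 replicate left out, members called ranged from 1 to 6 between Tw2pos and Pax7pos, from 0 to 4 between Tw2neg and Pax7neg and from 0 to 6 for the difference between the lines; only 1 Twist2 pair then gives the spread, and the lone library is assumed to vary like it. With CPM plus 1, 2 members were past the size taken as different between Pax7pos and Pax7neg. No called member value turned sign.

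Some values that did not pass turned sign, and the cause was not tested. Between Tw2pos and Tw2neg, Ptch1 was 0.0012 with quantile normalization and ran from −0.58 to 0.24 with 1 replicate left out, and Csnk1a1 was −0.0491 with library total scaling. Between Tw2pos and Pax7pos, Ptch1 was −0.0373 with TMM and ran from −0.11 to 0.68 with 1 replicate left out. Between Tw2neg and Pax7neg, TMM gave Gli2 0.0295, Gli3 0.0642 and Gas1 0.0736, and edgeR gave Gas1 0.0902. With 1 replicate left out there, Gli1 ran from −0.78 to 0.0956, Gli2 from −0.52 to 0.36, Gli3 from −0.36 to 0.27, Smo from −0.82 to 0.38, Hhip from −0.79 to 0.13, Cdon from −0.22 to 0.61 and Gas1 from −0.66 to 0.58. For the difference between the lines, TMM gave Gli1 −0.12 and Cc2d2a −0.10, and with 1 replicate left out they ran from −0.11 to 0.77 and from −0.0474 to 0.73. The filter on CPM removed no gene.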
